A study of Mus musculus with 6 samples.

Results

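Translation initiation factors (eIF1 to eIF6) and elongation factors (eEF1 and eEF2) were followed in N2a cells depleted of NPM1. Members were all genes whose symbol starts with *Eif1* to *Eif6*, *Eef1* or *Eef2*, leaving out pseudogene entries and the kinase gene *Eif2ak3*, and this gave 75 of the 26656 genes listed. Of these, 58 passed the filter on low values (a mean of at least log2 of 10) and were tested, 14 lay under it and 3 were listed at 0 in all libraries. N2a (Neuro-2a) is an established mouse neuroblastoma cell line, given here with the genotype WT. Cells were transfected with the plasmid pLKO.1-shNpm1 (NPM1 KD) or with pLKO.1-shCTR, a non-target hairpin (CTR), and RNA was taken at 72 h, or 3 days in vitro, from 3 libraries per condition. Selection with 9.3 µg/ml puromycin from 24 h after transfection is given for the knockdown experiments, in a protocol that all 6 libraries share and that does not name the CTR cells separately. Puromycin is itself an inhibitor of translation that ends nascent chains. A single hairpin was used, and the descriptions give 3 biological replicates in one place and 2 in another. The spread between these libraries may thus be partly technical. The p-values rest on a spread shared by genes of a like level, not on that of each gene alone.

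Initiation brings the small ribosomal subunit, the initiator tRNA and the mRNA together. eIF2 delivers the initiator tRNA, and eIF2B recharges eIF2 with GTP. eIF1, eIF1A, eIF3 and eIF5 work on the small subunit during scanning, the eIF4 factors bind the cap and unwind the leader, and eIF5B joins the large subunit, which eIF6 keeps apart until it is mature. Elongation then runs on eEF1A, which brings aminoacyl-tRNA and is recharged by the eEF1B subunits, and on eEF2, which moves the ribosome along. Neuroblastoma cells, like other fast-growing cells, make many ribosomes in the nucleolus, where NPM1 is one of the most abundant proteins.

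The unit throughout is the regularized log (rlog) value, a score on the log2 scale per gene and library that is normalized for depth and drawn towards the mean of the gene, and a difference is the mean of the 3 NPM1 KD libraries minus that of the 3 CTR libraries. Every rlog value of size 1 or more was a whole number, so a difference of means moves in steps of 0.33 and the difference before rounding can lie up to 1 away on either side. *Npm1* itself was 10 in each of the 3 CTR libraries and 8 in each of the 3 NPM1 KD libraries, a difference of −2 (SE 0.33, adjusted p = 3.23e-06, limma with Benjamini-Hochberg adjustment). The NPM1 KD libraries were shallower, with relative depths of 0.784, 0.833 and 0.961, while the CTR libraries had 1.24, 1.30 and 1.11. The neuronal marker list, with 11 of 16 genes tested, had a summed level of 77.3 to 80.4 in CTR and 70.4 to 72.5 in NPM1 KD, and the defining markers *Nefl* and *Nefm* were at 0. No marker of glia (5 genes), fibroblasts (4) or immune cells (4) passed the filter. The part of depth and of neuronal state in the values below was not tested, and in these bulk samples fewer cells of a kind and less RNA per cell cannot be told apart.

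Few translation factor genes, as few genes in the whole table, passed an adjusted p of 0.05 between the conditions in limma. Of the 58 tested members, 27 (46.6%) had equal means in both conditions, and 25 (43.1%) had one and the same value in all 6 libraries. These shares were 48.0% and 40.2% over all tested genes, close to those of the members. *Eif3j2*, one of the genes for the eIF3j subunit, was the only member that rose past the threshold, and no member fell past it. Among all 5752 tested genes, 4 (0.0695%) rose and 24 (0.417%) fell past an adjusted p of 0.05 in limma, against 1 (1.72%) and 0 of the members. At an unadjusted p below 0.05, 4 members (6.90%) were on the higher side, *Eif3j2*, *Eif2b1*, *Eif6* and *Eef1akmt1*, and 0 on the lower side, beside 6.07% and 8.07% of all tested genes. The 3 NPM1 KD libraries lay wholly above the 3 CTR libraries for 3 members (5.17%), *Eif3j2*, *Eif2b1* and *Eif6*, and wholly below for 0, beside 2.19% and 3.41% of all tested genes. With a single member called, the count alone says little about the members as a group.

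The mean rlog over the 58 members was 6.28, 6.33 and 6.36 in the CTR libraries and 6.40, 6.45 and 6.40 in the NPM1 KD libraries, a difference of 0.09. Each NPM1 KD library was above each CTR library on this mean. The genes with the highest values of this difference (*Eif3j2*, *Eif2b1* and *Eif6*, with *Eif3j1* as paralogue) were then set aside. Over the 54 members left, the difference was 0.02, and the libraries overlapped. The choice was made on these same values and kept the 4 members at −0.67, so a smaller difference follows from it. The median difference was 0 for the members and 0 for all tested genes, and the mean was 0.09 and −0.02. A higher mean in NPM1 KD was seen for 19 members (32.8%) and 24.6% of all tested genes, a lower mean for 12 (20.7%) and 27.4%. Single libraries of the same condition differed from each other in 8 to 15 members (13.79% to 25.86%), beside 21.16% to 27.38% of all tested genes. Libraries of different conditions differed in 15 to 20 members (25.86% to 34.48%), beside 27.24% to 35.85% of all tested genes. The wider range between conditions was thus seen over all tested genes too.

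**Figure D1:**
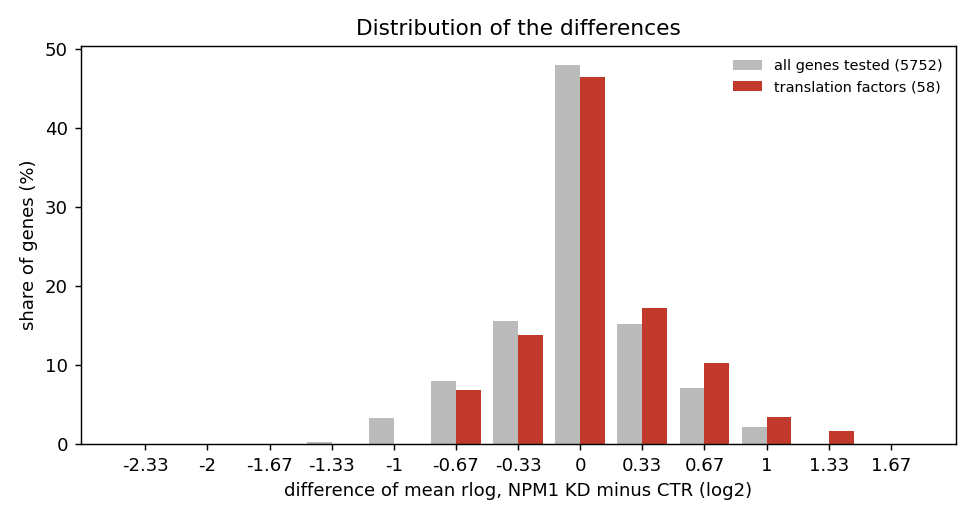
Share of genes (%, vertical axis) at each difference of mean rlog, NPM1 KD minus CTR (log2, horizontal axis), for all 5752 tested genes (grey bars) and the 58 tested translation factors (red bars). Bars at 0 are the tallest in both, with 48.0% of all genes and 46.6% of the translation factors, and the translation factors reach from −0.67 to 1.33.

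*Eif3j2* and *Eif3j1* encode eIF3j, a loosely bound subunit of eIF3 that sits in the decoding site of the small subunit. *Eif3j2* (ENSMUSG00000043424) was 6, 6 and 6 in the CTR libraries and 8, 7 and 7 in the NPM1 KD libraries. Every NPM1 KD library was above every CTR library, and NPM1 KD replicate 1 was the highest. The difference was 1.33 (SE 0.34, 95% interval 0.65 to 2.01, adjusted p = 0.0260 in limma), and before rounding it lies between 0.33 and 2.33. The call was lost when any 1 of the 6 libraries was left out, with adjusted p between 0.0704 and 0.248 and differences from 1 to 1.5, and also with the replicate number as a block (adjusted p = 0.167), without the filter on low values, without the variance floor and with the rounding variance added. *Eif3j1* (ENSMUSG00000027236) was 6, 6 and 6 in the CTR libraries and 7, 7 and 6 in the NPM1 KD libraries, so NPM1 KD replicate 3 lay at the CTR level. Its difference of 0.67 did not pass the test (SE 0.34, adjusted p = 0.330).

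Both genes are nearly identical in sequence. *Eif3j2* is a single-exon copy on another chromosome than *Eif3j1*, whose annotated transcript has 8 exons. The 2379 bases of the *Eif3j2* transcript align over their whole length to the 5413 bases of the *Eif3j1* transcript, with 4 substituted bases and 10 gapped columns, 99.4% identical in all, and the longest identical run is 1100 bases. Their coding sequences, 789 bases in *Eif3j2* and 783 in *Eif3j1*, have 0 differences over 783 aligned bases and differ by a gap, so that neither holds the other as 1 unbroken run. The *Eif3j1* transcript runs on for 2967 bases past the alignment. How reads that fit both genes were counted is not given in the sources used here, so the values of each are uncertain, and the table does not tell which of both loci the reads came from. Within a library, *Eif3j2* minus *Eif3j1* was 0, 0 and 0 for CTR and 1, 0 and 1 for NPM1 KD. The difference of 0.67 had a two-sided p of 0.4 in an exact permutation test (n = 3 per condition), for which the smallest possible p is 0.1. The test could not reach 0.05 with these numbers and says nothing on whether both copies changed alike.

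**Figure D2:**
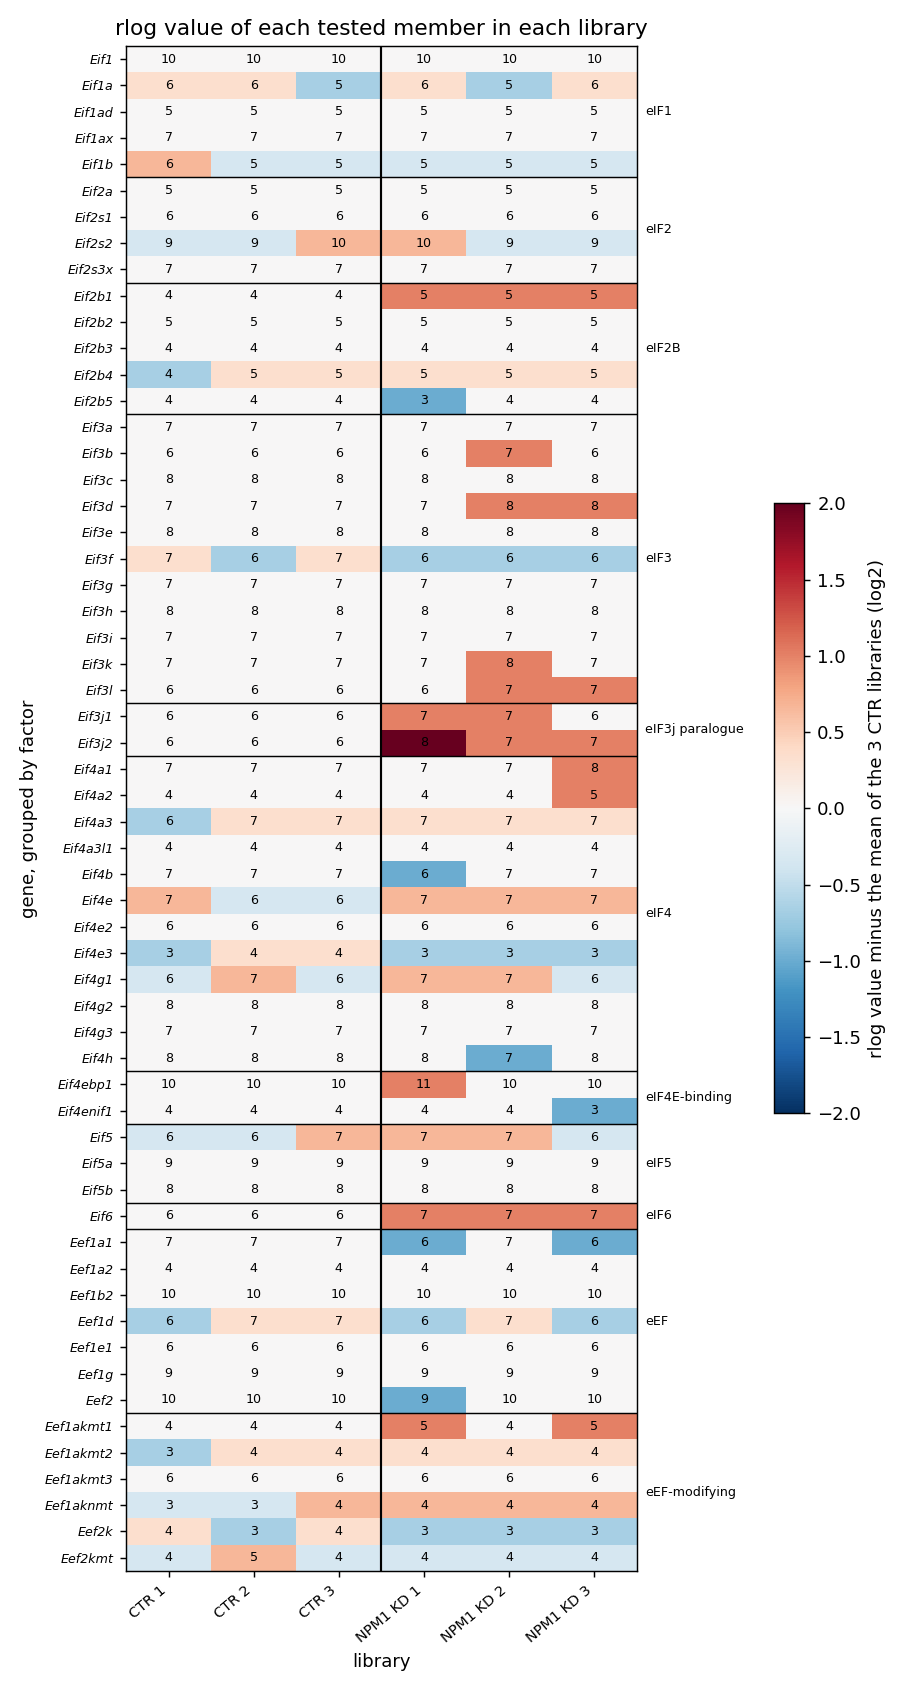
rlog value (printed in each cell) of the 58 tested members (rows, grouped by factor) in the 6 libraries (columns), coloured by the value minus the mean of the 3 CTR libraries on the log2 scale. *Eif3j2*, *Eif2b1* and *Eif6* are the rows in which all 3 NPM1 KD libraries stand above all 3 CTR libraries, and 25 rows have one value throughout.

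*Eif6* and *Eif2b1* were each a whole rounding step higher in every NPM1 KD library and missed the threshold. *Eif6* (ENSMUSG00000027613) encodes the factor that binds the 60S subunit, is needed for its maturation in the nucleolus and bars its early joining. Its rlog value was 6 in each CTR library and 7 in each NPM1 KD library, with a mean normalized count, by the authors over all libraries, of 98.1. The difference was 1.00 (SE 0.35, 95% interval 0.32 to 1.68, adjusted p = 0.0791 in limma). *Eif2b1* (ENSMUSG00000029388) encodes the alpha subunit of eIF2B, part of the regulatory core that senses phosphorylated eIF2. It was 4 in each CTR library and 5 in each NPM1 KD library (difference 1.00, SE 0.33, 95% interval 0.35 to 1.65, adjusted p = 0.0791 in limma). For both genes the difference before rounding lies between 0 and 2, so a step of this kind can come from a small shift across a rounding border or from a large one. Without the intensity trend both passed the threshold, with adjusted p = 0.0304 in limma, and both also passed it without the variance floor. Neither passed it with the rounding variance added, without the filter on low values or with the replicate number as a block. With any 1 library left out both missed it, with adjusted p between 0.182 and 0.248 in limma.

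The rest of eIF2B was mixed. *Eif2b2* (beta) was 5 and *Eif2b3* (gamma) 4 in all 6 libraries. *Eif2b4* (delta) was 4, 5 and 5 in the CTR libraries and 5, 5 and 5 in the NPM1 KD libraries, and *Eif2b5*, the catalytic epsilon subunit, was 4, 4 and 4 in the CTR libraries and 3, 4 and 4 in the NPM1 KD libraries. The alpha subunit was thus the one eIF2B gene whose groups did not overlap, and a test of its difference from the other subunits was not made. The complex mean over the 5 genes was 4.33 ± 0.12 in CTR and 4.53 ± 0.12 in NPM1 KD (SD, n = 3 libraries each). eIF2, the substrate of eIF2B, had equal means in both conditions for 3 of 3 subunit genes tested. Its alpha subunit gene *Eif2s1*, which carries the phosphorylated serine of the stress response, was 6 in all libraries, and the gamma subunit gene *Eif2s3x* was 7 in all. The beta subunit gene *Eif2s2* was 9, 9 and 10 in the CTR libraries and 10, 9 and 9 in the NPM1 KD libraries, so 1 library of each condition was higher. *Eif2a*, which encodes an alternative initiator tRNA carrier unrelated to eIF2 alpha and is grouped with eIF2 in the plots by name, was 5 throughout.

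The kinase genes for eIF2 alpha were low. *Eif2ak1*, the heme-regulated kinase, was 2 in all 6 libraries. *Eif2ak2* (PKR) was 3 in every library but NPM1 KD replicate 2, where it was 4, and *Eif2ak4* (GCN2) was 3, 2 and 3 in the CTR libraries and 2, 3 and 2 in the NPM1 KD libraries. None of the 3 passed the filter, so they were not tested. Genes of the integrated stress response, which act before, on or after eIF2 phosphorylation, were counted beside them. Of 11 such genes, 8 were tested and 0 passed the threshold in either direction. *Atf4*, whose mRNA is translated when eIF2 is phosphorylated, was 8 in all libraries, *Trib3* 5 and *Chac1* 4. *Asns*, which encodes asparagine synthetase, had a difference of −0.67 and *Ppp1r15b*, a constitutive partner of the eIF2 alpha phosphatase, one of 0.67 (each adjusted p = 0.330 in limma). *Ppp1r15a* (GADD34), which directs a phosphatase to eIF2 alpha, was 3 in each CTR library and 4 in each NPM1 KD library (difference 1.00, adjusted p = 0.166 in limma). It passed the filter only through the NPM1 KD libraries, so its place among the tested genes is not independent of this difference.

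**Figure D3:**
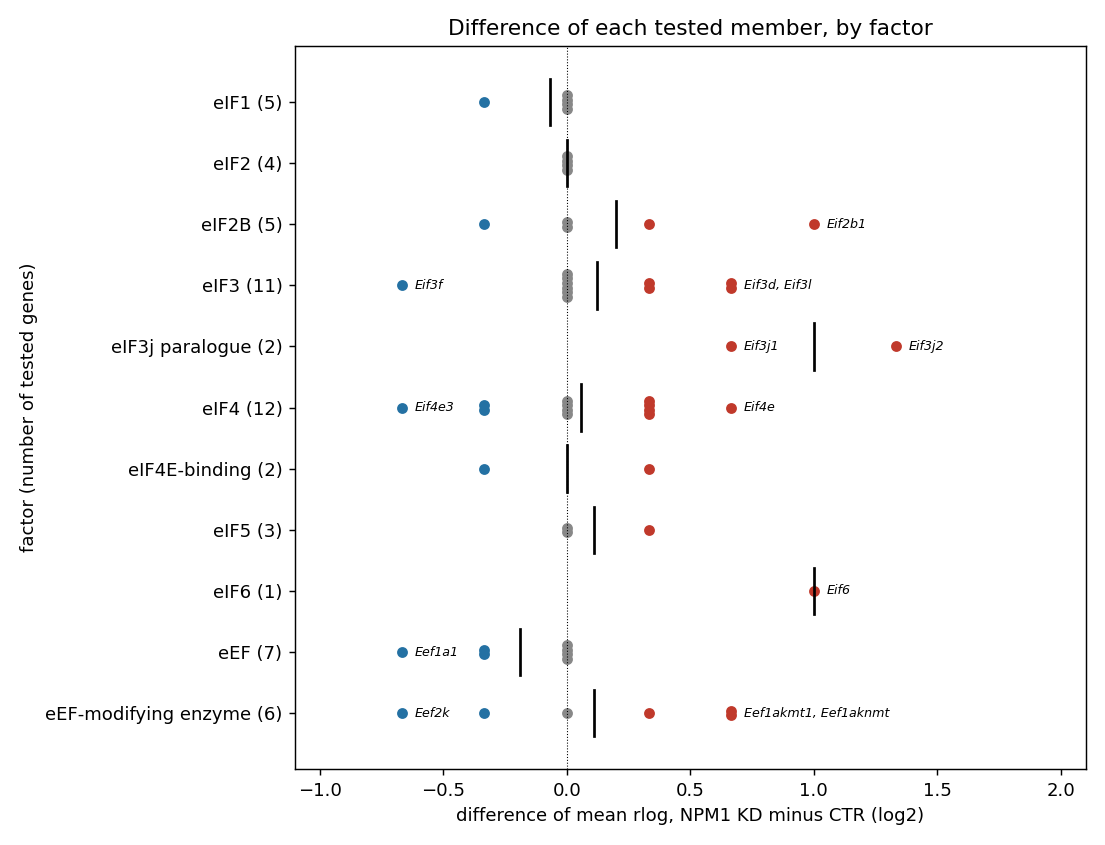
Difference of mean rlog, NPM1 KD minus CTR (log2, horizontal axis), of each tested member (points) by factor (vertical axis, number of genes in brackets), with the mean of the factor as a vertical line. Genes with differences of at least 0.67 in size are named, and *Eif2b1* and *Eif6* at 1 and *Eif3j2* at 1.33 lie to the right of all other members.

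eIF3, the largest initiation factor, had 11 of its 12 genes other than eIF3j tested, and their mean was 7.06 ± 0.05 in CTR and 7.18 ± 0.18 in NPM1 KD (SD, n = 3 libraries each), with overlapping libraries. Equal means were seen for 6 subunits, and each of these had one value in all libraries: *Eif3a*, *Eif3g* and *Eif3i* at 7 and *Eif3c*, *Eif3e* and *Eif3h* at 8. *Eif3d*, which can bind the cap of some mRNAs, was 7, 7 and 7 in the CTR libraries and 7, 8 and 8 in the NPM1 KD libraries. *Eif3l* was 6, 6 and 6 in the CTR libraries and 6, 7 and 7 in the NPM1 KD libraries. Both had a difference of 0.67 and an adjusted p of 0.330 in limma, and 1 of 3 NPM1 KD libraries lay at the CTR level. *Eif3b* and *Eif3k* were each 1 step higher in NPM1 KD replicate 2 only. *Eif3f* had a difference of the opposite sign, with 7, 6 and 7 in the CTR and 6, 6 and 6 in the NPM1 KD libraries (difference −0.67, adjusted p = 0.330 in limma). *Eif3m* was 2 in every library and was not tested.

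Among the eIF4 genes, 12 of 13 were tested, of which 5 had higher, 3 lower and 4 equal means, and their mean was 6.17 ± 0.08 in CTR and 6.22 ± 0.10 in NPM1 KD. *Eif4e*, the cap-binding subunit, was 7, 6 and 6 in the CTR libraries and 7, 7 and 7 in the NPM1 KD libraries (difference 0.67, adjusted p = 0.330 in limma), with CTR replicate 1 at the NPM1 KD level. Its relative *Eif4e3* was 3, 4 and 4 in the CTR libraries and 3, 3 and 3 in the NPM1 KD libraries (difference −0.67, adjusted p = 0.470 in limma). *Eif4e3* passed the filter only through the CTR libraries. *Eif4e2*, which serves repression of bound mRNAs, was 6 throughout. The helicase genes *Eif4a1* and *Eif4a2* differed from CTR in NPM1 KD replicate 3 alone, where both were 1 step higher. The scaffold genes *Eif4g2* and *Eif4g3* had one value each, 8 and 7, while *Eif4g1* was 6, 7 and 6 in the CTR libraries and 7, 7 and 6 in the NPM1 KD libraries. The helicase partners *Eif4b* and *Eif4h* were each 1 step lower in a single NPM1 KD library. *Eif4ebp1*, the inhibitor of eIF4E that mTORC1 controls, was 10, 10 and 10 in the CTR libraries and 11, 10 and 10 in the NPM1 KD libraries, and *Eif4enif1*, the eIF4E transporter, was lower in 1 NPM1 KD library. *Eif4ebp2* lay under the filter, at 2 or 3 in each library, and *Eif4ebp3* was at 0.

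Of the tested eIF1 and eIF5 genes, 5 of 8 had one value in all libraries. *Eif1*, the member with the highest mean normalized count (1372), was 10 in all libraries, *Eif1ax* 7 and *Eif1ad* 5. *Eif1a* was 6, 6 and 5 in the CTR libraries and 6, 5 and 6 in the NPM1 KD libraries, and *Eif1b* was 1 step higher in CTR replicate 1 only. *Eif5a*, which carries the hypusine residue and relieves stalled ribosomes, was 9, and *Eif5b* 8, in all libraries. *Eif5*, the activator of GTP hydrolysis by eIF2, was 6, 6 and 7 in the CTR libraries and 7, 7 and 6 in the NPM1 KD libraries. *Eif5a2* lay under the filter, at 1, 1 and 1 in the CTR libraries and 2, 2 and 1 in NPM1 KD.

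**Figure D4:**
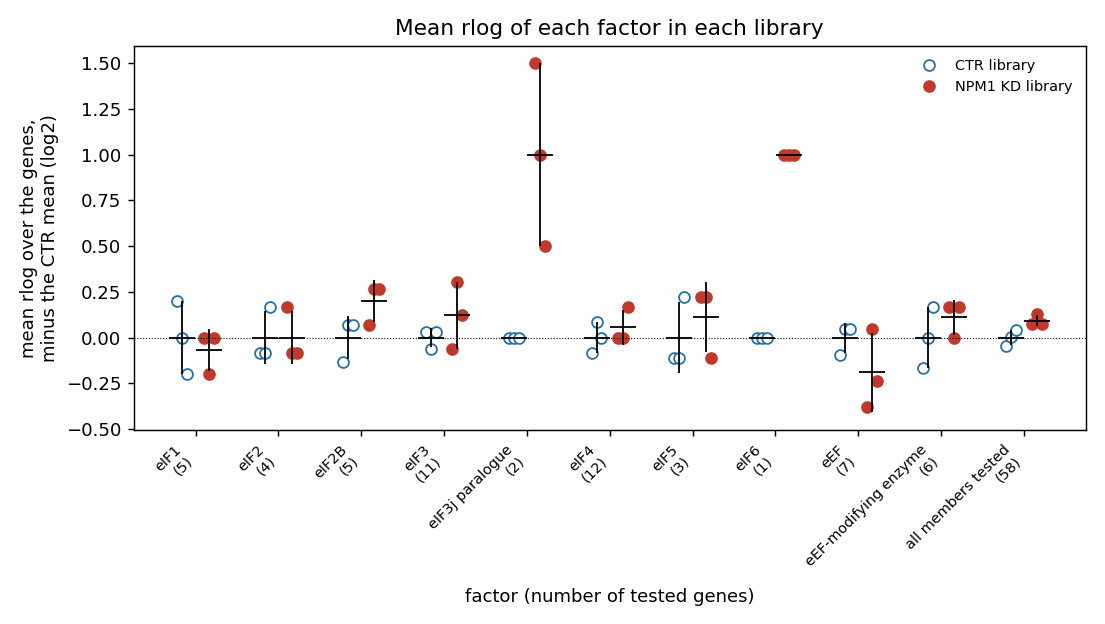
Mean rlog over the tested genes of each factor in each library, minus the CTR mean of that factor (log2, vertical axis), with open points for CTR and filled points for NPM1 KD libraries and bars for the mean ± SD of 3 libraries. The eIF3j genes and *Eif6* are 0.5 to 1.5 above CTR in each NPM1 KD library, eIF2 has a difference of 0, and the eEF genes are the factor with the lowest difference, −0.19.

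The elongation factor genes had no higher mean. Of 7 tested, 3 were lower and 4 equal in NPM1 KD, and their mean was 7.52 ± 0.08 in CTR and 7.33 ± 0.22 in NPM1 KD, where replicate 2 lay at the level of CTR replicates 2 and 3. *Eef1a1*, the main eEF1A gene, was 7, 7 and 7 in the CTR libraries and 6, 7 and 6 in the NPM1 KD libraries (difference −0.67, SE 0.35, 95% interval −1.35 to 0.01, adjusted p = 0.330 in limma). Its mean normalized count of 101.7 lay below those of *Eef1b2* (1065), *Eef2* (891) and *Eef1g* (483). It lay above those of *Eef1d* (91.7), *Eef1e1* (61.3) and *Eef1a2* (15.6). How reads that fit several loci were counted is not given, and their part in the *Eef1a1* values was not tested. *Eef1d*, an exchange subunit, was 6, 7 and 7 in the CTR libraries and 6, 7 and 6 in the NPM1 KD libraries. *Eef2*, the translocase, was 10, 10 and 10 in the CTR libraries and 9, 10 and 10 in the NPM1 KD libraries. The other exchange subunits *Eef1b2* and *Eef1g* were 10 and 9 in all libraries. *Eef1a2*, which takes over from *Eef1a1* in mature neurons and muscle, was 4 in all libraries. *Eef1e1*, counted among these 7 genes by its name, was 6 in all libraries. No eEF gene passed the threshold, and the libraries of *Eef1a1*, *Eef1d* and *Eef2* overlapped between the conditions.

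Of the enzymes that modify elongation factors, *Eef2k*, the kinase that inhibits eEF2, was 4, 3 and 4 in the CTR libraries and 3, 3 and 3 in the NPM1 KD libraries (difference −0.67, adjusted p = 0.470 in limma). *Eef2k* passed the filter only through the CTR libraries. The eEF1A methyltransferase gene *Eef1akmt1* was 4, 4 and 4 in the CTR libraries and 5, 4 and 5 in the NPM1 KD libraries (difference 0.67, adjusted p = 0.330 in limma). *Eef1aknmt* was 3, 3 and 4 in the CTR libraries and 4, 4 and 4 in the NPM1 KD libraries, and *Eef1akmt3* was 6 in all libraries. As many of these 6 genes were lower or equal as were higher (3 higher, 2 lower, 1 equal).

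Many elongation factor mRNAs and a few eIF mRNAs carry a 5′ terminal oligopyrimidine (TOP) tract, a C at the first base followed by pyrimidines, through which mTORC1 controls their translation. Of 9 members known as TOP mRNAs, 5 had lower means and 4 equal means in NPM1 KD, with 0 higher. Over all tested genes, 27.4% had lower, 48.0% equal and 24.6% higher means. The 9 members had a median of −0.33 and a range of −0.67 to 0, beside a median of 0 over all tested genes. None of the 9 passed the threshold. These genes were *Eef1a1*, *Eef1b2*, *Eef1d*, *Eef1g*, *Eef2*, *Eif3e*, *Eif3f*, *Eif3h* and *Eif4b*, and 4 other TOP mRNAs on the same list were *Npm1*, *Pabpc1*, *Tpt1* and *Rack1*. *Pabpc1*, the poly(A)-binding protein that ties the tail to eIF4G, was 8 in each CTR library and 7 in each NPM1 KD library (difference −1, adjusted p = 0.0791 in limma). *Tpt1* had a difference of 0.67 and *Rack1* one of 0. Over all 13 genes of the list, *Npm1* included, 1 had a higher, 7 a lower and 5 an equal mean. The median was −0.33 and the mean −0.36, and *Npm1* alone passed the threshold. *Npm1* is the target of the hairpin, so its difference of −2 was set by the design and lowers that mean. Over the 9 members, without the 4 other genes, the mean was −0.26. In RefSeq (GRCm38.p6, whose promoter table holds 52 members), a C at the annotated start with at least 4 pyrimidines after it was found for 2 members (3.85%) and for 3.01% of all 27025 genes. Both sequences are shown because they carry the tract, in capitals, with 10 bases before the start, beside that of *Eef1a1*, a known TOP mRNA with a difference of −0.67, whose annotated start is not a C followed by such a run.
Eif3f (chr7:108934405-108934434, plus strand): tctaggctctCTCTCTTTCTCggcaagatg
Eif2s3x (chrX:94212632-94212661, minus strand): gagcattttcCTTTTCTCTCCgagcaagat
Eef1a1 (chr9:78481705-78481734, minus strand): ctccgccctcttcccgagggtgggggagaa
*Eif3f* was 1 of the 4 members with a difference of −0.67, and *Eif2s3x* had one value in all libraries. An annotated start can lie some bases from the start that cells use, and no match says only that these letters are not at this position.

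The E-box CACGTG, to which MYC-family and related factors bind, was more frequent in promoters of members than in promoters at large. It was found, reading either strand since it is its own reverse complement, within 250 bases before to 50 bases after an annotated start in 13 of the 52 members (25%) and in 8.09% of all 27025 genes. This is a description, and no test of it was made. The 27025 genes were not limited to genes tested here, nor matched for the number of annotated starts (67 for the 52 members). A share over tested genes alone was not worked out. Of the 12 tested members that hold it, 5 had higher, 5 lower and 2 equal means, between −0.67 and 0.67, and of the 32 tested members in the table without it 10 were higher, 5 lower and 17 equal. Of the members whose groups did not overlap, *Eif2b1* does not hold it in this window, and *Eif3j2* and *Eif6* have no entry in the table. The windows below are those of the 4 tested members with the E-box and a difference of 0.67 in size, plus *Eef2* and *Eif4g1*, with the E-box in capitals.
Eif4e (chr3:138527192-138527221, plus strand): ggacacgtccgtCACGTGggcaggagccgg
Eef1aknmt (chr1:162548475-162548504, minus strand): gtgtggctgctgCACGTGgggcgcggaccg
Eif3f (chr7:108934335-108934364, plus strand): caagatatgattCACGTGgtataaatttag
Eef2k (chr7:120842788-120842817, plus strand): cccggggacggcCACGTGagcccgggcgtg
Eef2 (chr10:81176576-81176605, plus strand): acccggcgccgtCACGTGacgcacccaacc
Eif4g1 (chr16:20672661-20672690, plus strand): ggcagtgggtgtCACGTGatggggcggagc
The first base of the E-box lies 64 bases before the start in *Eif4e*, 147 in *Eef1aknmt*, 68 in *Eif3f*, 31 in *Eef2k*, 43 in *Eef2* and 54 in *Eif4g1*. *Eif4e* and *Eef1aknmt* had differences of 0.67, and *Eif3f* and *Eef2k* of −0.67, so members with the same letters had differences of both signs. The ATF4-type element TGATGNAA, searched on both strands, was found in 2 of the 52 members (3.85%) and in 4.51% of all genes.

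Other paralogous members are less alike than the eIF3j pair. Between *Eif4a3*, the helicase of the exon junction complex, and its single-exon relative *Eif4a3l1*, 96.2% of 1233 aligned coding bases are identical. *Eif4a3* was 6, 7 and 7 in the CTR libraries and 7 in each NPM1 KD library, and *Eif4a3l1* was 4 in all libraries, a value that is uncertain where reads were shared. The coding bases of *Eif1* and *Eif1b* are 81.1% identical, those of *Eef1a1* and *Eef1a2* 80.1%, of *Eif4a1* and *Eif4a2* 78.2% and of *Eif5a* and *Eif5a2* 73.2%.

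Genes outside the family that work with these factors were counted by function. Of 62 listed, 60 were found and 38 tested, 0 passed the threshold in either direction, and 14 (36.8%) had higher, 8 (21.1%) lower and 16 equal means, with a median of 0, beside 24.6% higher and 27.4% lower over all tested genes. The 3 NPM1 KD libraries lay wholly above CTR for *Ppp1r15a* and for *Rheb*, the GTPase that activates mTORC1 (6 in each CTR library, 7 in each NPM1 KD library, difference 1.00, adjusted p = 0.0791 in limma), and wholly below for *Pabpc1*, which is 2 (5.26%) and 1 (2.63%) of the 38 beside 2.19% and 3.41% of all tested genes. Of these genes, *Ppp1r15a* passed the filter only through its NPM1 KD libraries. By function, 5 of 11 tested genes of poly(A) binding and cap regulation were higher and 2 lower. Of 7 genes of the mTORC1 arm, 2 were higher and 2 lower. Of 9 genes of termination, recycling and reinitiation 5 were higher and 2 lower, and of 3 genes that modify eEF1A, eEF2 and eIF5A or join the eEF1 complex 0 were higher and 1 lower. *Mtor* was 4 and *Rps6*, a ribosomal target of its pathway, 10 in all libraries.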

How the data were processed

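RNA of 6 N2a libraries (3 CTR, 3 NPM1 KD) was made into cDNA with a PCR barcoding kit and read as long reads on a GridION. The submitters' processing notes name minimap2, featureCounts, DESeq2 and GRCm39, without roles or versions. The authors deposited rlog values, a log2-scale score per gene and library, rounded to whole numbers from a size of 1 upward. A further table by the authors holds their mean normalized count per gene, used here, and the fold changes, standard errors, statistics and p-values of their own comparison, not used. No value column was left unassigned. Of 26913 rows, 257 that repeated a gene ID under another symbol were dropped, 11880 genes were at 0 throughout, and 5752 genes reached a mean rlog of at least log2 of 10.

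These genes entered a two-sided limma fit (version 3.58.1, R 4.3.3, eBayes with intensity trend), with variances within groups floored at 0.0833, the variance of rounding, and Benjamini-Hochberg adjustment over all tested genes (threshold 0.05). The standard error followed the mean level of a gene. *Eif6*, with one value per condition, and *Eef1d*, which varied in both conditions, each had 0.3455. The fit was checked on simulated data. The difference between *Eif3j2* and *Eif3j1* was tested by exact permutation. Python 3.11.15 and Biopython 1.88 were used for sequences. Transcripts came from GENCODE M21 and promoters from RefSeq, both on the older GRCm38 build, so coordinates are given for promoter windows only.

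Total reads per library are not given in the tables used. Genes with a single read show the relative depths, and if the total equalled the sum of the mean normalized counts, libraries would hold 6.59e+05 to 1.10e+06 counted reads. Tested members had mean normalized counts of 10.8 to 1372 with a median of 91.6, and rounding limits precision more than depth does for the higher ones. Alternatives were another filter, none, no variance floor, the rounding variance added, no trend, centred libraries, a replicate block and leaving out each library.

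The members and lists were chosen with earlier results of these data known. Named were members past the threshold, members whose groups did not overlap, the eIF3j genes, core subunits and regulators that passed the filter, the largest differences in either direction, and partner genes past the threshold or without overlap. *Eif5a2*, *Eif3m*, *Eif2d*, *Eif4ebp2* and the kinase genes, which lie under the filter, and *Atf4*, *Trib3*, *Chac1*, *Asns*, *Ppp1r15b*, *Tpt1*, *Rack1*, *Mtor* and *Rps6* were named beyond that rule, after their values were seen. Same-numbered libraries correlated at 0.001 to 0.030 in their deviations from the group means, and differently numbered ones at −0.036 to 0.025. Since the values are rounded to whole numbers, these correlations cannot decide whether the numbers mark pairs.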

Additional observations from a re-analysis of the deposited data

How the results depend on the processing

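Over all genes tested, 4 were called higher and 24 lower. Without the variance floor the counts were 123 and 178, and without the intensity trend 132 and 218. With the rounding variance added they were 1 and 7, without a filter 1 and 10, and with a replicate block 1 and 7. Leaving out 1 library gave 0 to 2 higher and 5 to 9 lower. Of the members, 1 was called higher. Without the variance floor this was 2 (*Eif6* and *Eif2b1*), without the trend 3 (these and *Eif3j2*), and 0 with the rounding variance added, without a filter, with the replicate block and without any 1 library (0 to 0). The cause was not tested. A stricter filter, a mean rlog of at least 5, gave 3 higher and 21 lower genes, and centred libraries 4 and 24, with *Eif3j2* called in both. Under these settings 0 members were called lower, and no difference other than 0 changed sign. *Eif1a* and *Eif2s2*, with a difference of 0, took values from −0.33 to 0.33 with a library left out.

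The adjusted p of *Eif3j2* in limma ranged from 0.00656 without the trend to 0.248 with a library left out. For *Eif6* and *Eif2b1* it rose to between 0.182 and 0.248 with a library left out. The difference between *Eif3j2* and *Eif3j1* stayed between 0.50 and 1.00 with a library left out, and the replicate block, which the numbers do not warrant, left it at 0.67 (exact permutation p = 0.5). Rounding and 3 libraries per condition limit what could be seen: the 95% intervals of members with equal means reach about 0.63 to 0.68 to either side.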

Other observations

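Genes left out by the naming rule gave further values. *Eif3s6-ps2*, a pseudogene entry of the eIF3e family, was 7 in all 6 libraries, with a mean normalized count of 145 by the authors. *Eef2-ps2* was 6, 6 and 6 in the CTR libraries and 5, 6 and 5 in the NPM1 KD libraries, while *Eef2* was 10, 10 and 10 and 9, 10 and 10. Reads of such entries can be shared with the parent genes. *Eif2ak3* (PERK) was 2, 1 and 2 in the CTR libraries and 2, 2 and 1 in the NPM1 KD libraries.

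Of the 17 members under the filter, *Eif2s3y*, *Eif4e1b* and *Eif4ebp3* were listed at 0 in every library. The 7 *Eif1ad*-like genes (*Eif1ad2*, *Eif1ad3*, *Eif1ad6*, *Eif1ad7*, *Eif1ad8*, *Eif1ad16* and *Eif1ad19*) had a total of 1 or 2 reads each over all 6 libraries, as worked out from the mean normalized counts, while *Eif1ad* itself was 5 in every library. The other 7 (*Eif2ak1*, *Eif2ak2*, *Eif2ak4*, *Eif2d*, *Eif3m*, *Eif4ebp2* and *Eif5a2*) had mean normalized counts of 2.89 to 10.2. *Eif2d*, a factor of reinitiation, was 2 in every library but NPM1 KD replicate 2, where it was 3.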
